A study of Mus musculus with 4 samples.

Results

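Among the BM macrophages sorted for single-cell RNA sequencing, a small set of cells carried the RNA of developing neutrophils, and these cells are described here. They were chosen by 8 granule genes. A cell was called early when the summed UMIs (unique molecular identifiers, counts of RNA molecules) of Elane, Prtn3, Mpo and Ctsg reached 10. A cell was called late when it missed that mark and the summed UMIs of Ltf, Ngp, Camp and Retnlg reached 10. The rule took 240 of 36528 cells, 116 early and 124 late, and left 36288 remaining cells. Because these 8 genes chose the cells, their levels are given as a description with no test, and the tests below cover only other genes.

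Neutrophils form in the bone marrow by granulopoiesis, in which a dividing promyelocyte first makes the proteins of primary granules, the serine proteases neutrophil elastase (Elane), proteinase 3 (Prtn3) and cathepsin G (Ctsg) together with myeloperoxidase (Mpo). Myelocytes then switch to the proteins of secondary granules, among them lactoferrin (Ltf), neutrophilic granule protein (Ngp) and cathelicidin (Camp). Later stages make gelatinase granules and the receptors by which mature neutrophils leave the marrow, and resistin-like gamma (Retnlg) belongs to those stages.

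All 4 libraries came from bone marrow of male C57BL/6J mice, aged 4 to 6 weeks in the study's general methods and 4 weeks where it describes the single-cell experiment, cultured for 4 days with M-CSF at 30 ng/mL, the growth factor that drives macrophage differentiation. The resulting BM macrophages met RM1 cells, a mouse prostate cancer line, that had been killed by UV light and stained with the dye CFSE, at 1 apoptotic cell per macrophage for 16 to 18 h. Cells with the macrophage surface protein F4/80 and with CFSE were sorted as efferocytic, cells that had engulfed an apoptotic cell. Cells sorted for F4/80 only were called non-efferocytic. The sources describe them both as macrophages that did not engulf and as macrophages alone, so whether they had shared wells with apoptotic cells is not clear. Each of 2 experiments gave 1 library of each group, so every group has n = 2, and p-values measure only the spread between these libraries. A neutrophil precursor reached a library only by passing the F4/80 gate, and the share of members in each group can be set by the F4/80 and CFSE gates.

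The 8 genes of the rule lie on 5 chromosomes. In mm10 (GENCODE vM21), Prtn3 (chr10:79874476-79883174) and Elane (chr10:79886247-79888215) are neighbours on the plus strand with 3072 bases between them. Mpo lies at chr11:87793581-87804413 on the plus strand and Ctsg at chr14:56099881-56102574 on the minus strand. Camp (chr9:109847379-109849617, minus strand), Ngp (chr9:110419747-110423012, plus strand) and Ltf (chr9:111019271-111042767, plus strand) share chromosome 9, and Retnlg lies at chr16:48872621-48874496 on the plus strand. The stretches upstream of the start site of 2 early and 2 late genes follow, from RefSeq (GRCm38.p6), to show the sequence before genes of each class. Capitals mark 2 motifs sought on both strands, GAGGAAG, a core of sites of the myeloid factor PU.1, and TTNNGNAA, a core of sites of the C/EBP factors.
Elane promoter, chr10:79886062-79886246, plus strand: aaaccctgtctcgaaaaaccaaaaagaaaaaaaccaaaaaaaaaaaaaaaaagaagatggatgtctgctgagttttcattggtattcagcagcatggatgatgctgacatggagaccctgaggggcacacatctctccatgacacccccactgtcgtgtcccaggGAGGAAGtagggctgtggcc
Ctsg promoter, chr14:56102575-56102824, minus strand: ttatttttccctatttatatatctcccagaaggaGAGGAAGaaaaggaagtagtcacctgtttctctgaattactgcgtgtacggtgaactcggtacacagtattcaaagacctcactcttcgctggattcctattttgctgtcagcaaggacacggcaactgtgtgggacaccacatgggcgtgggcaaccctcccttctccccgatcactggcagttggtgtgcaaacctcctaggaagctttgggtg
Ltf promoter, chr9:111019042-111019270, plus strand: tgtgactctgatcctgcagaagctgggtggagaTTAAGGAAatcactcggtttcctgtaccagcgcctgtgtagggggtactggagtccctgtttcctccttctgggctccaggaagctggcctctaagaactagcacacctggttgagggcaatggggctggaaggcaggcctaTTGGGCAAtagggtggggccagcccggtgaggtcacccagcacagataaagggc
Retnlg promoter, chr16:48872358-48872607, plus strand: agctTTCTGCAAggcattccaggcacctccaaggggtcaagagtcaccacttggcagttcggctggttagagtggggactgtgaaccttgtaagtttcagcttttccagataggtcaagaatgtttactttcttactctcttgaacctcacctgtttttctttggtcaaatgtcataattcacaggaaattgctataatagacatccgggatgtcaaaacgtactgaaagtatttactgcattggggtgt
GAGGAAG stood in the window of 4 of 4 early genes and of 0 of 4 late genes, and in 15.4% of 27025 genes with a window. TTNNGNAA stood in 0 of 4 early windows and in 3 of 4 late windows, those of Ltf, Ngp and Retnlg, and in 44.1% of all genes. The motifs were chosen after the sequences had been seen, and a match is only a run of letters. The split did not extend to other granule genes: GAGGAAG stood in 2 of 12 matched genes of a list of other primary granule genes and in 5 of 15 of a list of secondary granule genes, and TTNNGNAA in 7 of 12 and 11 of 15.

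The cells of the 4 libraries held between 101049514 and 154354662 UMIs per library, with medians of 9646 to 11146 UMIs per cell in non-efferocytic and 17165.5 to 17568.5 in efferocytic libraries. The 2 libraries of Experiment 1 shared 15 barcodes that passed the cell filter and those of Experiment 2 shared 118, against a mean of 17 between libraries of different experiments, and barcodes shared within an experiment were left out. Levels are in CPM, where UMIs of a gene were summed over the cells of a class in a library and then scaled to a common total of UMIs, with no correction for gene length. Values for 4 libraries are given for the non-efferocytic libraries of Experiments 1 and 2, then for the efferocytic libraries of Experiments 1 and 2.

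Neutrophil-lineage cells were scarcer in the efferocytic libraries of both experiments. Early cells numbered 33 of 8265 (0.399%; exact 95% interval, here and below Clopper-Pearson, 0.275 to 0.560) and 60 of 13293 (0.451%; 0.345 to 0.581) in the non-efferocytic libraries. In the efferocytic libraries they numbered 10 of 6680 (0.150%; 0.0718 to 0.275) and 13 of 8290 (0.157%; 0.0835 to 0.268). The 2 groups did not overlap, with means of 0.153% ± 0.00503 in efferocytic and 0.425% ± 0.0368 in non-efferocytic libraries (SD, n = 2), a ratio of 0.360. The ratio was 0.375 in Experiment 1 and 0.347 in Experiment 2.

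Late cells numbered 43 (0.520%; 0.377 to 0.700) and 61 (0.459%; 0.351 to 0.589) in the non-efferocytic libraries and 15 (0.225%; 0.126 to 0.370) and 5 (0.0603%; 0.0196 to 0.141) in the efferocytic libraries. The groups again did not overlap, at 0.490% ± 0.0434 and 0.142% ± 0.116 (SD, n = 2), but the ratio of 0.432 in Experiment 1 was 0.131 in Experiment 2. For either class the two-sided exact permutation test over libraries gave p = 0.333, the smallest that 2 libraries against 2 allow. Intervals cover counting error only.

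**Figure D1:**
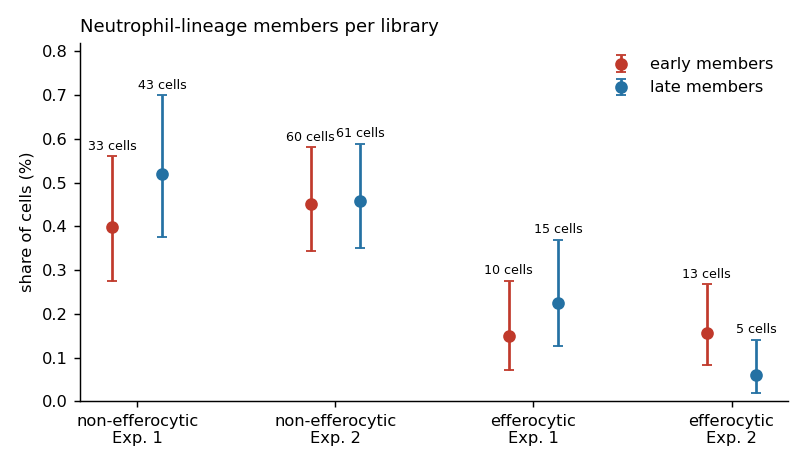
Share of cells (%) called early or late in each library, with exact 95% binomial intervals and the number of cells above each point. Early cells sit at 0.399% and 0.451% in the non-efferocytic libraries and at 0.150% and 0.157% in the efferocytic libraries, and the late share of the efferocytic library of Experiment 2 rests on 5 cells.

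The summed early genes ranged far above the threshold. Of the 116 early cells, 62 held 100 or more UMIs of the 4 early genes, 40 held 15 to 99 and 14 held 10 to 14. Just below the mark, 21 cells had 5 to 9 such UMIs, and 19 of these passed as late cells. For the late genes, 215 cells held 100 or more UMIs, 2 held 10 to 14 and 7 lay just below at 5 to 9. The call of early against late therefore cut a range, whereas few cells lay between late cells and the remaining cells. In the remaining cells the early genes summed to 0 UMIs in 96.5% to 99.4% of cells per library and the late genes in 89.2% to 98.1%.

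Most early cells expressed both sets. Only 6 cells passed for the early genes alone, 110 passed for both, and 124 passed for the late genes alone. One of the 6, a cell of 12546 UMIs in the non-efferocytic library of Experiment 2, held 11 early UMIs, no S100a8 or S100a9, and 1013 UMIs of Prg2, the major basic protein of eosinophils. It entered the rule through the lowest counts and was kept in the early class.

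Among the early genes, Elane lay at 3062, 2611, 3057 and 4770.3 CPM in early cells and at 6.84, 24.5, 5.19 and 0 CPM in late cells. Prtn3 kept more RNA in late cells, at 56.5, 114, 62.3 and 155 CPM against 3295, 4073, 3485 and 5448 CPM in early cells. Mpo was at 0, 1.36, 0 and 0 CPM in late cells and at 1249.8, 1212, 858 and 2097 CPM in early cells. Ctsg was at 675, 980.0, 1109.5 and 1909 CPM in early cells and between 0 and 30.9 CPM in late cells. No late library reached an early library for any of these 4 genes, a separation that the rule helps to set.

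The late genes did not share a single pattern. Ngp, at 17351, 19911, 15937 and 21796 CPM, and Camp, at 16827, 20274, 17548 and 15788 CPM, were already abundant in early cells and lay at 30974, 27026, 29224 and 38605 CPM and at 47406, 31188, 39202 and 44589 CPM in late cells. Ltf was lower in early cells, at 771, 603, 739.7 and 876 CPM against 6509, 4538, 5794 and 6633 CPM. Retnlg was at 1.26, 2.19, 0 and 0 CPM in early cells and at 1103, 725, 1589 and 30.9 CPM in late cells, where the last value rests on 64680 UMIs in all. Ngp and Camp RNA were thus present in early cells that nearly lacked Retnlg RNA. In the remaining cells none of the 8 genes passed 6.63 CPM.

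**Figure D2:**
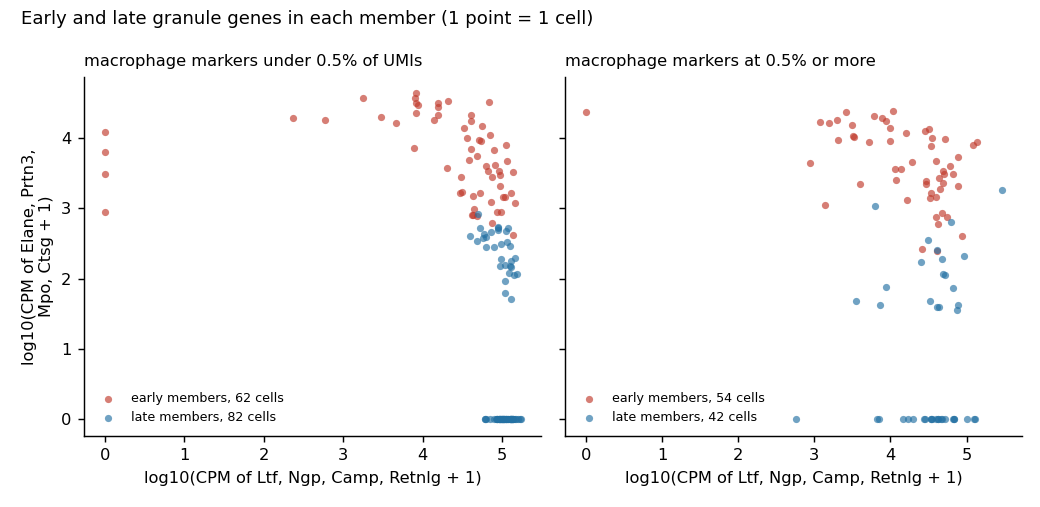
Each point is 1 neutrophil-lineage cell, with the summed late genes on the x axis and the summed early genes on the y axis, both as log10(CPM + 1), for cells with macrophage markers under 0.5% of UMIs (left) and at 0.5% or more (right). Early cells (62 left, 54 right) span from few late UMIs to the late range, late cells number 82 and 42, and the 2 classes adjoin.

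Genes outside the rule placed the members apart from the other cells. Members held 0.851% of all UMIs in cells but 97.2% of the UMIs of S100a8 and 98.6% of those of S100a9, the calgranulins that make up much of the neutrophil cytosol. They also held 98.9% of the UMIs of Lcn2 (lipocalin 2, a secondary granule protein), 98.1% of Chil3, 98.8% of Fcnb (ficolin B) and 98.6% of Ms4a3, a marker of granulocyte and monocyte progenitors. S100a8 and S100a9 together made up 14.1%, 15.1%, 18.4% and 15.4% of the UMIs of early cells and 19.3%, 17.1%, 19.1% and 23.7% of those of late cells. In the remaining cells they made up 0.00174% to 0.00555%, and in barcodes with at most 100 UMIs, which hold free RNA, 0.0884% to 0.353%.

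The label of neutrophil lineage fitted these markers in most members. In 19 of the 240, S100a8 and S100a9 made up under 5% of UMIs, 16 of them among the 121 members of the non-efferocytic library of Experiment 2, and 17 of the 19 carried macrophage RNA (0.5% of UMIs or more in macrophage markers). The regulator of terminal granulopoiesis Cebpe was at 331, 516, 377 and 528 CPM in early cells, at 530.3, 513, 509 and 758 CPM in late cells and at 0.721 to 1.13 CPM in the remaining cells. Ly6g, a surface marker of mature mouse neutrophils, was at 0 to 4.37 CPM in early cells and 42.8, 28.6, 10.4 and 0 CPM in late cells. A list of 16 stem and myeloid progenitor genes summed to 275 to 465 CPM in early, 117 to 263 CPM in late and 46.8 to 62.0 CPM in the remaining cells. Of the 3 tested against the remaining cells, the receptor gene Kit, Prom1 and Cdk6 were higher in early cells and Kit and Prom1 in late cells, whereas the stem cell markers Cd34 and Flt3 did not pass 1.46 CPM in any class and library.

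When the 8 genes were removed and cells were placed by 20 principal components of other variable genes, members still lay beside members. Of the 20 nearest neighbours of early cells with little macrophage RNA (defined in the next paragraph), 100% in Experiment 1 and 99.4% in Experiment 2 were members, and of late cells with little macrophage RNA 100% and 99.8%, although members made up 0.676% and 0.644% of cells. For members with macrophage RNA the share was 95.7% and 96.3% in the early class and 90.5% and 68.3% in the late class. Neighbours of the same class made up 62.6% to 84.2% for members with little macrophage RNA, so early and late cells had neighbours of the other class.

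A large part of the members also carried macrophage RNA. The UMIs of 16 macrophage markers (among them the F4/80 gene Adgre1, C1qa, Mertk and Cd68) split the members with few cells between, and a level of 0.5% of a cell's UMIs, chosen after seeing the data, put 144 members below and 96 at or above. An Adgre1 UMI was found in 15 of the 144 (10.4%) and in 86 of the 96 (89.6%), beside 90.2% of the remaining cells. Adgre1 is 1 of the markers that made the split, which in part sets this contrast. Members with macrophage RNA had more UMIs, with a median of 27011.5 against 20195.5 in early cells of the non-efferocytic library of Experiment 2, and a lower share of S100a8 and S100a9, with medians of 10.4% against 20.5%. They made up 21 of 33 and 28 of 60 early cells in the non-efferocytic libraries but 2 of 10 and 3 of 13 in the efferocytic libraries. Among late cells they made up 15 of 43 and 23 of 61, then 4 of 15 and 0 of 5.

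The summed macrophage markers lay between 6892 and 12116 CPM in early cells and between 928 and 15260 CPM in late cells, with the defining gene Adgre1 at 0 in the late cells of the efferocytic library of Experiment 2. They lay between 38374 and 46110 CPM in the remaining cells and between 603 and 1515 CPM in early cells with little macrophage RNA. A doublet caller scored the cells of each library, and of the 5% of cells with the highest scores 0 were early and 4 were late, all 4 with macrophage RNA. Whether these droplets held 2 cells, or a neutrophil precursor with macrophage RNA attached or inside it, was not tested. Counts of called genes are given with and without them, as are some list counts and some named genes.

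**Figure D3:**
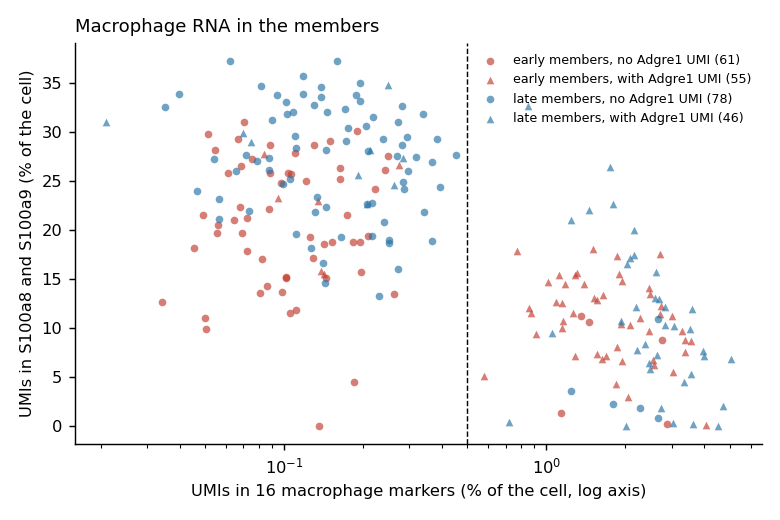
Share of a cell's UMIs in 16 macrophage markers (x axis, log scale, %) against its share in S100a8 and S100a9 (y axis, %) for all 240 members, with triangles for cells with an Adgre1 UMI. The dashed line at 0.5% separates 144 cells, few with Adgre1, from 96 cells of which 86 had it, where Adgre1 is 1 of the 16 markers.

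Restricting the members to those with little macrophage RNA changed the shares most in the non-efferocytic libraries. Early cells then made up 0.146% and 0.242% of cells in the non-efferocytic libraries and 0.120% and 0.121% in the efferocytic libraries, a ratio of 0.621 in place of 0.360. Late cells made up 0.340% and 0.287%, then 0.165% and 0.0603%, a ratio of 0.359 in place of 0.291. The library shares of the groups did not overlap in either class, but the exact intervals of the early shares did. In Experiment 1 there were 12 non-efferocytic early cells (0.0754% to 0.255%) against 8 efferocytic ones (0.0518% to 0.236%), so the intervals nearly coincided. In Experiment 2 there were 32 (0.165% to 0.341%) against 10 (0.0579% to 0.222%).

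Early and late cells were compared over summed UMIs with edgeR's quasi-likelihood test with the library as a block, in which the 5 late cells of the efferocytic library of Experiment 2 did not enter. Adjusted p-values here and below are from this test with Benjamini-Hochberg adjustment, and log2 fold changes are given with their standard error (SE). Of 7680 genes, 750 (9.77%) differed, 319 higher in early cells (4.15%) and 431 lower (5.61%). With library totals in place of TMM factors for scaling, 704 were higher and 263 lower, with the median of all genes at 0.16 in place of -0.00. The count fell to 321, 397 and 450 without the non-efferocytic library of Experiment 1, the efferocytic library of Experiment 1 and the non-efferocytic library of Experiment 2, respectively. Without members carrying macrophage RNA, 333 genes of 4823 were higher (6.9%) and 375 lower (7.78%), of which 193 and 248 were among those above, and 0 genes were called in the opposite direction.

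Of 16 other primary granule and promyelocyte genes, 10 were higher in early cells and 2 lower, with a median log2 fold change of 0.92 against -0.00 over all genes. Of all genes 4.15% were higher and 5.61% lower. Without macrophage RNA 9 were higher, with a median of 1.25, where 6.9% of all genes were higher. Nkg7, a membrane protein of cytotoxic granules, lay at 161, 155, 176 and 315 CPM in early cells and at 3.42, 9.53, 0 and 46.4 CPM in late cells (log2 fold change 4.69, SE 0.45, adjusted p = 2.35e-06). Cst7, an inhibitor of the proteases that process granule enzymes, had 2 UMIs over the late cells tested, and its level was 44.6-fold higher in early cells (95% counting interval 12.1 to 371). Here and below, intervals of such ratios pool UMIs over libraries and do not cover the spread between libraries or cells.

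Srgn, the proteoglycan core on which granule proteins are packed, was at 1131, 1207, 943 and 2069.7 CPM in early cells, 111, 85.7, 57.1 and 30.9 CPM in late cells and 163, 184, 122 and 107 CPM in the remaining cells, with a log2 fold change of 3.70 between early and late (SE 0.29, adjusted p = 1.06e-07). Ms4a3, at 790.0, 907, 1008 and 1319 CPM against 176, 257, 145 and 387 CPM (2.14, SE 0.34, adjusted p = 0.000612), and Plac8 (2.43, SE 0.24, adjusted p = 2.77e-06) were also higher in early cells, with no overlap between the classes. In DESeq2 Ms4a3 did not pass (2.33, adjusted p = 0.198). Serpinb1a, the inhibitor that holds elastase in check inside the cell, did not pass the test, at 645, 735, 672 and 664 CPM against 684, 721, 539.9 and 1113 CPM (log2 fold change -0.03, SE 0.23, adjusted p = 0.958). Fcnb was higher in early cells (0.79, SE 0.23, adjusted p = 0.0376), but not without macrophage RNA (0.49, SE 0.22, adjusted p = 0.143). Lyz2 (lysozyme) and Mgst1 were the 2 lower genes, by -0.82 and -0.77.

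The secondary granule list moved the other way. Of 16 measured genes of 17, 0 were higher in early cells and 11 lower, with a median of -1.25, and 12 were lower without macrophage RNA. Of all genes 4.15% were higher and 5.61% lower, and 7.78% were lower without macrophage RNA. Lcn2 lay at 3537, 3779, 4618 and 2374 CPM in early cells and at 11162, 10565, 10030.2 and 12137 CPM in late cells (-1.45, SE 0.36, adjusted p = 0.016). Ifitm6, an interferon-induced membrane protein, lay at 59.2, 40.1, 47.5 and 21.8 CPM against 674, 442, 1090.2 and 1051 CPM (-4.07, SE 0.29, adjusted p = 5.68e-08). Cd177, a surface receptor stored in secondary granules, was lower by -2.08 (SE 0.18, adjusted p = 4.34e-07), and Chil3, at 11126, 11369.7, 15845 and 14115 CPM in early cells, did not pass the test (0.23, SE 0.26, adjusted p = 0.626).

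Of a list of 8 genes taken here as tertiary (gelatinase) granule genes, 5 were lower in early cells and 0 higher, with a median of -0.71. Of all genes 5.61% were lower and 4.15% higher. Membership of the list does not place a protein in these granules. The collagenase Mmp8 lay at 5.04, 1.46, 6.79 and 8.16 CPM in early cells and at 369.5, 196, 301 and 30.9 CPM in late cells (-6.35, SE 0.31, adjusted p = 1.42e-10). The remaining cells held Mmp8 at 13.6 to 19.7 CPM, and 4.99% of its UMIs over all cells lay in members. The gelatinase Mmp9 had UMIs in early cells of only 1 library, at 5.04 CPM, and lay at 506, 178, 421 and 77.3 CPM in late cells (-7.98, SE 0.59, adjusted p = 6.67e-08). Pglyrp1, a peptidoglycan recognition protein, differed less, at 1158, 1076, 1126 and 933 CPM against 2022, 1698, 1547 and 1747 CPM (-0.78, SE 0.22, adjusted p = 0.0295).

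**Figure D4:**
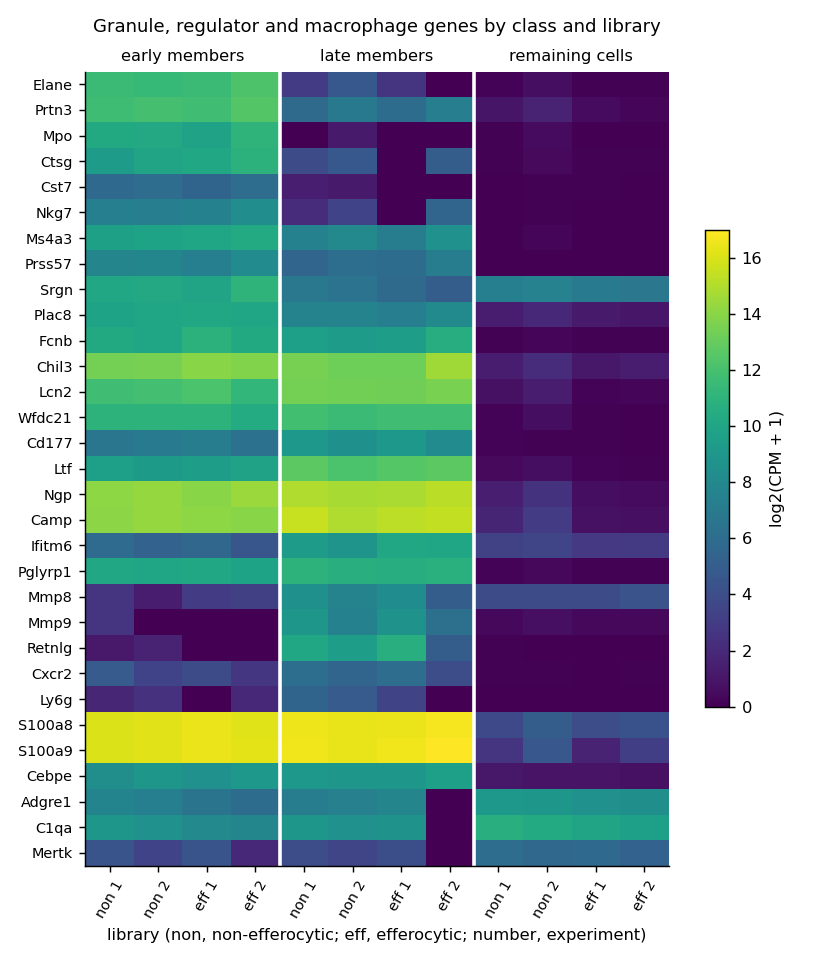
Level of 31 genes, as log2(CPM + 1) in colour, in early cells, late cells and the remaining cells of each library. Primary granule genes such as Nkg7 are bright in early cells, Mmp8, Mmp9 and Retnlg in late cells, S100a8 and S100a9 in both, and Adgre1, C1qa and Mertk are brightest in the remaining cells.

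Of 17 measured genes of a list of 25 mature neutrophil genes, 0 were higher in early than in late cells and 7 lower, where 4.15% and 5.61% of all genes were. Against the remaining cells 13 were higher and 2 lower in early cells, with a median of 7.55, where 29.6% and 30.4% of all genes were. In late cells 15 were higher and 2 lower, with a median of 9.16, where 22.4% and 24.2% were. S100a8 and S100a9 are in this list and made up most of its UMIs. The chemokine receptor Cxcr2 lay at 29, 9.47, 13.6 and 5.44 CPM against 70.1, 46.3, 67.5 and 15.5 CPM in late cells (-2.15, SE 0.47, adjusted p = 0.0072), and the formyl peptide receptor Fpr2 at 0 to 2.19 CPM against 128, 57.2, 129.8 and 15.5 CPM (-6.19, SE 0.65, adjusted p = 5.19e-06). The cytokine gene Il1b was at 0 in late cells of all 4 libraries and reached 2.91 CPM in early cells. S100a8 (-0.36, SE 0.23, adjusted p = 0.337) and S100a9 (-0.44, SE 0.41, adjusted p = 0.543) did not pass the test.

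The other genes with the largest changes that held in every library tested were not in these lists. Myl10 (3.92, SE 0.38, adjusted p = 2.69e-06), Fcor (2.51, SE 0.34, adjusted p = 0.00014) and Tma16 (2.29, SE 0.37, adjusted p = 0.000593) were higher in early cells. Plbd1 (-4.61, SE 0.44, adjusted p = 2.02e-06), the sialyltransferase St3gal5 (-3.58, SE 0.22, adjusted p = 6.71e-09) and the chemokine Cxcl2 (-2.56, SE 0.43, adjusted p = 0.000904) were lower. Cxcl2 varied between libraries by more than its mean, at 10.5 ± 18.2 CPM in early and 55.7 ± 89.6 CPM in late cells (SD, n = 3), and did not pass with no block (adjusted p = 0.341) or in DESeq2 (adjusted p = 0.111). Ceacam10 had 2 UMIs in the early cells tested and was 49.6-fold higher in late cells (95% counting interval 13.2 to 419). It lay at 2.26 ± 3.92 CPM in early and 56.7 ± 44.7 CPM in late cells (SD, n = 3).

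The NADPH oxidase, the enzyme of the neutrophil's oxidative burst, had subunits that were lower in early cells. Its catalytic subunit Cybb lay at 742, 711, 645 and 509 CPM in early cells, at 2027, 1510.5, 1459 and 1871 CPM in late cells and at 802, 701, 667 and 453 CPM in the remaining cells (-1.38 between early and late, SE 0.14, adjusted p = 5.19e-06). The cytosolic subunit Ncf1 was lower too (-0.61, SE 0.15, adjusted p = 0.013), while the GTPase Rac2 did not pass the test (-0.14, SE 0.14, adjusted p = 0.57).

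Of 16 transcription factors of granulopoiesis, Myb, a factor of dividing progenitors, was higher in early cells (0.93, SE 0.28, adjusted p = 0.0414) and 0 were lower. Of all genes 4.15% were higher and 5.61% lower. Without macrophage RNA the calls were other genes: Cebpa was higher (1.95, SE 0.45, adjusted p = 0.00427), and Cebpe (-0.60, SE 0.17, adjusted p = 0.0185) and Cebpd (-0.72, SE 0.22, adjusted p = 0.03) were lower, of 14 tested. There 6.9% of all genes were higher and 7.78% lower, so these few calls say little about the list. Gfi1, a repressor needed for neutrophil development, lay at 64.3, 56.8, 47.5 and 122 CPM against 23.9, 20.4, 36.3 and 108 CPM (1.16, SE 0.41, adjusted p = 0.0822). The cell cycle kinase Cdk6 was higher in early cells (1.95, SE 0.21, adjusted p = 6.49e-06), at 174, 193, 190.0 and 256 CPM against 39.3, 39.5, 51.9 and 92.8 CPM. The monocyte gene Ly6c2, also made by early granulocyte precursors, was at 1246, 1094, 1795 and 1194 CPM in early and 756, 565, 669.7 and 1283 CPM in late cells, where the difference did not pass the test (0.94, SE 0.40, adjusted p = 0.14).

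Median UMIs per cell were 21680, 22023, 27440.5 and 25015 in early cells, 11985, 11093, 9870 and 13310 in late cells and 11126, 9613, 17166 and 17558.5 in the remaining cells, and the rule takes deeper cells more easily. Thinned to 2000 UMIs per cell, the median number of genes was 921.5 to 964 in early, 758 to 826 in late and 940 to 971 in the remaining cells. Mitochondrial RNA had medians of 1.99% to 2.31% in early, 0.856% to 1.48% in late and 2.78% to 3.24% in the remaining cells.

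At that depth, 5 or more UMIs of 20 G2M genes were found in 81.8%, 81.0%, 90% and 92.3% of early cells and in 46.5%, 44.8%, 53.3% and 80% of late cells, the last of 5 cells. In the remaining cells the shares were 1.66% to 3.02%. The list holds Hmgb2, which alone averaged 3694 of 6291 CPM in late cells. It averaged 4047 of 7323 CPM in early cells with little macrophage RNA. These shares are therefore not shares of cells in G2 or mitosis. At the same depth an Mki67 UMI was found in 30.3%, 32.8%, 50% and 38.5% of early cells. It was found in 18.6%, 25.9%, 40% and 20% of late cells and in 2.54% to 3.77% of the remaining cells. For 20 S phase genes the shares were 48.5%, 36.2%, 70% and 61.5% in early cells, 9.30%, 36.2%, 13.3% and 40% in late cells and 0.245% to 2.10% in the remaining cells. Without thinning, the G2M genes summed to 5295 to 7329 CPM in early, 4340 to 9586 CPM in late and 284 to 436 CPM in the remaining cells. Between early and late cells 3 of 19 tested S phase genes (Dut, Mcm6 and Rrm1) were higher in early cells and 0 of 20 G2M genes passed in either direction. Of all genes 4.15% were higher and 5.61% lower, so the G2M count lies near that share and says little about the list. Mki67 lay at 224, 187, 265 and 171 CPM against 173, 127, 259.6 and 170.1 CPM.

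Against the remaining cells, 4608 of 7680 genes (60%) differed in early cells, 2270 higher (29.6%) and 2338 lower (30.4%). In late cells 3578 (46.6%) differed, 1723 higher (22.4%) and 1855 lower (24.2%), and 2371 without the non-efferocytic library of Experiment 1. Against such a background a called gene says little by itself, and the sizes carry the comparison. Without macrophage RNA, 1501 genes were higher (31.1%) and 1639 lower (34%) in early cells and 1367 higher (28.3%) and 1564 lower (32.4%) in late cells.

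The largest folds came from genes nearly without UMIs in the remaining cells. Mrgpra2b, a receptor of the Mas-related family, had 0 UMIs there and was at least 7443-fold higher in early and 10540-fold higher in late cells, against a floor of 3 counts over the remaining cells of the libraries tested. Ms4a3 (13.61, SE 0.45, adjusted p = 2.83e-15), Fcnb (13.54, SE 0.34, adjusted p = 4.68e-17), Prss57, a serine protease of primary granules (13.45, SE 0.27, adjusted p = 2.63e-18), and Myl10 (13.73, SE 0.36, adjusted p = 9.29e-17) led the early cells. Not all granule genes were higher: of the 16 other primary granule genes 10 were higher and 4 lower in early cells (Ctsc, Gstm1, Lyz2 and Mgst1), and 10 higher and 5 lower in late cells. Of 16 tested genes of the secondary granule list 14 were higher in early and 15 in late cells, and 1, Lyz1, was lower in both. Of the 8 genes of the tertiary granule list 3 were higher and 4 lower in early cells (Fcer1g, Hpse, Mmp8 and Slc11a1), and 5 higher and 2 lower in late cells. Lcn2 (14.17, SE 0.53, adjusted p = 3.73e-14), Wfdc21 (14.14, SE 0.48, adjusted p = 6.29e-15), Pglyrp1 (13.59, SE 0.33, adjusted p = 4.41e-17) and the integrin Itgb2l (13.54, SE 0.31, adjusted p = 3.56e-17) led the late cells. S100a9 was higher in both, by 13.29 and 13.73. BC100530, a stefin gene, was named by the rule for late cells (12.93, SE 0.59, adjusted p = 1.66e-12), but lay at 1.71, 323, 72.7 and 0 CPM there. Olfm4 had 3 UMIs in the remaining cells and ratios of 13370 (4517 to 65340) and 19890 (6730 to 97120).

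Macrophage genes were lower in members. All 16 macrophage markers and 10 of 10 measured efferocytosis receptors and bridging proteins were lower in both classes, with medians of -2.12 and -1.96 in early and -1.55 and -1.64 in late cells. Of all genes 30.4% were lower in early and 24.2% in late cells. Without macrophage RNA all 16 markers and 7 of 7 tested receptors and bridging proteins were lower, with medians of -5.71 and -5.31 in early and -5.01 and -5.53 in late cells, where 34% and 32.4% of all genes were lower. Those members were chosen by a low sum of the same 16 markers, so the choice itself sets the lower marker levels there. Mertk is in both lists. The engulfment receptor Mertk lay at 20.2, 9.47, 20.4 and 2.72 CPM in early cells and at 66.8, 53.3, 54.3 and 39.1 CPM in the remaining cells. The elastase Mmp12 (-3.88, SE 0.35, adjusted p = 1.41e-08), the scavenger receptor Cd36 (-3.23, SE 0.28, adjusted p = 6.63e-09), Fabp4 (-3.23, SE 0.25, adjusted p = 1.5e-09), Il7r (-3.56, SE 0.28, adjusted p = 1.71e-09), Cd72 (-3.20), lipoprotein lipase Lpl (-3.18), Slc15a3 (-3.12) and C77080 (-2.99) fell furthest in early cells. In late cells these were Ctsk (-3.22, SE 0.55, adjusted p = 7.9e-05), Fabp4 (-2.31), Akr1b8 (-2.26), Folr2 (-2.24), Fam129b (-2.17), Slc6a8 (-2.14), Hfe (-2.13) and Lyz1 (-2.08). Lyz1 stands in the secondary granule list and not in the macrophage list.

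All 19 tested S phase genes and all 20 G2M genes were higher than in the remaining cells in both classes, also without macrophage RNA. Of 20 HIF targets in glycolysis, a list taken up because the study followed hypoxia genes, 14 were higher and 2 lower in early cells. Of all genes 29.6% were higher and 30.4% lower there. In late cells 13 were higher and 1, Mif, was lower, where 22.4% and 24.2% of all genes were. Without macrophage RNA it was 12 higher and 1 lower of 16 in early cells, where 31.1% and 34% of all genes were. In late cells it was then 12 higher and 2 lower, where 28.3% and 32.4% of all genes were. The enolase gene Eno1 (1.60, SE 0.13, adjusted p = 4.49e-09) and lactate dehydrogenase Ldha (0.79, SE 0.15, adjusted p = 0.00013) were higher in early cells, and Aldoa was lower (-0.56, SE 0.13, adjusted p = 0.00115). Of the transcription factors, Myb (11.39), Gfi1 (11.21) and Cebpe (8.92) were higher in early cells, while Irf8 (-1.79, SE 0.18, adjusted p = 6.62e-08), a factor of monocytes, macrophages and dendritic cells, and Cebpa (-0.70, SE 0.15, adjusted p = 0.000533) were lower, and Spi1, the gene of PU.1, did not pass the test (0.14, SE 0.13, adjusted p = 0.346). The receptor Csf3r, through which G-CSF acts on neutrophils, lay at 101, 61.9, 64.5 and 62.6 CPM in early and 10.6 to 42.3 CPM in the remaining cells (1.28, SE 0.21, adjusted p = 3.52e-05). Only 2.46% of its UMIs lay in members.

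Early cells of the efferocytic libraries were then compared with those of the non-efferocytic libraries, with the experiment as a block. Fits of this comparison with 1 library left out had no such block, so they changed the pairing as well as the libraries. Of 6078 genes 85 (1.4%) differed, 11 higher (0.181%) and 74 lower (1.22%). Without the block 24 genes differed, and 21, 159 and 31 without the non-efferocytic library of Experiment 1, the efferocytic library of Experiment 1 and the non-efferocytic library of Experiment 2. No higher call was left in several settings: 0 genes were higher without the block, in DESeq2, with 10% free RNA removed or without the non-efferocytic library of Experiment 2 (in all 529, 105, 533 and 443 genes at an unadjusted p under 0.05), and 1 without that of Experiment 1. The macrophage markers were lower in the efferocytic libraries too, summing to 12116, 11552, 7688 and 6892 CPM in early cells. Of the 74 lower genes 70 (94.6%) were also lower in early than in the remaining cells, where 30.4% of all 7680 genes were. The same early sums enter both comparisons, and the part of macrophage RNA in these calls was not tested. Among early cells with little macrophage RNA 0 of 3036 genes differed (0%), with 204 at an unadjusted p under 0.05. DESeq2, run on all early cells, called 8. Late cells could not be tested in this way, because the efferocytic library of Experiment 2 held 5.

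Of the 16 macrophage markers 7 were lower in efferocytic early cells and 0 higher, where 1.22% and 0.181% of all genes were. Cd74, the invariant chain of MHC class II, lay at 147 and 261 CPM in non-efferocytic and at 0 and 5.44 CPM in efferocytic early cells, 2 UMIs in all, a ratio of 72.6 (95% counting interval 20 to 602). H2-Aa, an MHC class II chain, had 0 UMIs in efferocytic early cells and was at least 10.5-fold lower there, against a floor of 3 counts over the group. Among early cells with little macrophage RNA, Cd74 lay at 4.74 and 10.6 CPM against 0 and 0 CPM, and 7 MHC class II genes summed to 104, 99.7, 108 and 126 CPM, beside 305, 597, 98.4 and 122 CPM in all early cells. None of the 6 lower genes named here passed the filter on low counts among those cells. Both genes were lower in the efferocytic remaining cells also, where Cd74 lay at 326 and 569 CPM against 27.6 and 62.1 CPM. Fxyd2, with 3 UMIs in the efferocytic group, had a ratio of 9.89 (3.28 to 48.8), and Hpgd (-2.99, SE 0.57, adjusted p = 0.00466), the lysosomal enzyme Hgsnat (-2.32, SE 0.39, adjusted p = 0.00188) and the phospholipid transfer protein Pltp (-2.18, SE 0.27, adjusted p = 3.56e-05) were lower. Hpgd and Fxyd2 did not pass without the block (adjusted p = 0.0942 and 0.0668), and Hpgd and Pltp did not pass with free RNA removed (adjusted p = 0.0682 and 0.0543). In DESeq2 1 of the 12 genes named in this comparison, lower or higher, kept its call. There 6 did not pass and the others had no adjusted p.

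The higher genes named by the rule changed less. G0s2, an inhibitor of lipolysis, lay at 50.4 and 114 CPM in non-efferocytic and at 78 and 288 CPM in efferocytic early cells (1.10, SE 0.22, adjusted p = 0.00774), and the groups overlapped although the efferocytic value was higher in each experiment. Without the efferocytic library of Experiment 2 its value was -0.15, and that of Ctsl was -0.18. That fit, like each fit of this comparison with 1 library left out, had no experiment block. It set the efferocytic library of Experiment 1 against both non-efferocytic libraries. Within Experiment 1 both genes were higher in efferocytic early cells, Ctsl at 240.9 against 191.5 CPM. F10, the gene of coagulation factor X (1.04, SE 0.25, adjusted p = 0.0335), Myl10 (0.92, SE 0.19, adjusted p = 0.00942), the chaperone Calr (0.85, SE 0.19, adjusted p = 0.0157), cathepsin L (Ctsl, 0.82, SE 0.19, adjusted p = 0.0273) and Cnbp (0.80, SE 0.19, adjusted p = 0.0273) followed. None of these 6 passed without the block (adjusted p from 0.0831 for Myl10 to 0.423 for Ctsl), with free RNA removed (0.0647 for G0s2 to 0.471 for Ctsl) or without either non-efferocytic library, and none was called by DESeq2, which gave F10 no adjusted p. Among early cells with little macrophage RNA, Calr lay at 166 and 190.4 CPM against 369 and 509 CPM (1.20, SE 0.21, adjusted p = 0.153) and Myl10 at 275 and 320.3 CPM against 517 and 823 CPM (1.06, SE 0.21, adjusted p = 0.229), with no overlap between groups but past no threshold. Ctsl there had a value of -0.31 (SE 0.38, adjusted p = 0.882).

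Of the other primary granule list 1 of 16 was higher (Calr) and 2 were lower (Ctsc and Igfbp4), where 0.181% and 1.22% of all genes were, and among early cells with little macrophage RNA 0 of 15 passed. In all early cells, of 15 tested genes of the secondary and 6 of the tertiary granule list 0 passed in either direction. In the HIF glycolysis list Mif was higher (0.77, SE 0.19, adjusted p = 0.0335) and 0 were lower of 19, with a median of 0.48 against 0.00 over all genes. That call was lost without the block, in DESeq2 and with free RNA removed. It was also lost among early cells with little macrophage RNA, and in each of these settings 0 genes were higher. In the efferocytic remaining cells 15 of 20 genes of the list were higher and 1 lower, with a median of 0.87, where 5250 of 13643 genes differed (38.5%), 2671 higher (19.6%) and 2579 lower (18.9%). Summed over the list, early cells with little macrophage RNA lay at 7637, 6935, 7936 and 9773 CPM and the remaining cells at 3089, 3234, 5304 and 5994 CPM. The efferocytic libraries were the higher ones of each experiment in both.

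Whether the efferocytic effect, the log2 difference between efferocytic and non-efferocytic cells, itself differed between classes was tested as an interaction. Between early and remaining cells it differed for 35 of 7680 genes (0.456%), 25 with a higher (0.326%) and 10 with a lower (0.13%) effect in early cells. The count was 6 when no block was used, 4 with free RNA removed, and 12 when Experiment 2 had no efferocytic library. Of the HIF glycolysis list 0 of 20 and of the macrophage list 0 of 16 were among them, with smallest adjusted p-values of 0.201 (Pgam1) and 0.174 (Gpnmb). The late efferocytic arm held only the library of Experiment 1, which is assumed to vary like the other sums. Between late and remaining cells the effect differed for 5 of 7680 genes (0.0651%), 5 higher (0.0651%) and 0 lower (0%). This count was 11 or 10 with the non-efferocytic library of Experiment 1 or 2 left out, 1 with the efferocytic library of Experiment 2 left out, and 0 when no block was used (636 at an unadjusted p under 0.05). Between early and late cells, with that same arm of 1 library, 0 genes passed in this test, with 574 at an unadjusted p under 0.05. This count was 6 without the non-efferocytic library of Experiment 2, and 1 without that of Experiment 1, without the efferocytic library of Experiment 2 or with free RNA removed, each with a lower effect in early cells.

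Thbs1, the gene of the secreted matrix protein thrombospondin 1, showed the clearest difference. It lay at 84.3 and 69.3 CPM in non-efferocytic and at 9.23 and 7.22 CPM in efferocytic remaining cells, but at 752, 520.2, 774 and 685 CPM in early cells. In late cells it lay at 1076, 565 and 831 CPM without the 5 late cells of the last library. The difference of the effect was 3.44 for early (SE 0.25, adjusted p = 2.20e-06) and 3.15 for late cells (adjusted p = 0.000117). Without macrophage RNA the early difference was 3.45 (adjusted p = 1.63e-08). With 10% free RNA removed neither value passed (early 6.24, adjusted p = 0.179, and late adjusted p = 0.649), and without the block the late value did not pass (adjusted p = 0.0539).

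For other genes the 2 groups lay further apart in the remaining than in the early cells. Cdkn1a, the cell cycle inhibitor p21, lay at 335 and 243 CPM against 122 and 78.5 CPM in remaining cells and at 220.5 and 191 CPM against 224 and 166 CPM in early cells (difference 1.42, SE 0.20, adjusted p = 0.0044). Hexokinase 3 (Hk3) lay at 73.8 and 80.7 CPM against 162 and 178 CPM in remaining cells and at 163 and 177 CPM against 153 and 144 CPM in early cells (-1.36, SE 0.19, adjusted p = 0.0044). The inhibitory receptor Cd300lf lay at 4.04 and 4.97 CPM against 24.9 and 28.1 CPM and at 34 and 39.3 CPM against 40.7 and 54.4 CPM (-2.19, SE 0.32, adjusted p = 0.00516). Egln3, an oxygen sensor that HIF induces, lay at 0.211 and 0.214 CPM against 2.75 and 1.59 CPM in remaining cells and at 21.4 and 24.8 CPM against 23.8 and 29.9 CPM in early cells (-3.09, SE 0.56, adjusted p = 0.02). Without macrophage RNA the differences were 1.98 for Cdkn1a (adjusted p = 0.0159), -1.44 for Hk3 (adjusted p = 0.0169) and -2.67 for Cd300lf (adjusted p = 0.00641), and Egln3 was not among the genes tested. Of all 35 genes 18 kept the call there, 13 did not pass, 1 turned its sign (Hgsnat) and 3 were not tested.

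With 10% free RNA removed none of these 4 genes passed, although their differences were no smaller, at 1.55 for Cdkn1a (adjusted p = 0.0719), -1.46 for Hk3 (adjusted p = 0.0719), -3.94 for Cd300lf (adjusted p = 0.30) and -5.78 for Egln3 (adjusted p = 0.155). With no block Cdkn1a (1.43, adjusted p = 0.258) and Egln3 (-3.15, adjusted p = 0.101) did not pass. Cd300lf passed with any 1 library left out. Cdkn1a did not pass without the non-efferocytic library of Experiment 1 (1.22, adjusted p = 0.105) or the efferocytic library of Experiment 2 (1.28, adjusted p = 0.0683), and Hk3 not without the latter (-1.29, adjusted p = 0.0542). With 1 library left out, Egln3 passed only without the efferocytic library of Experiment 2 (-3.72, adjusted p = 0.0268).

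**Figure D5:**
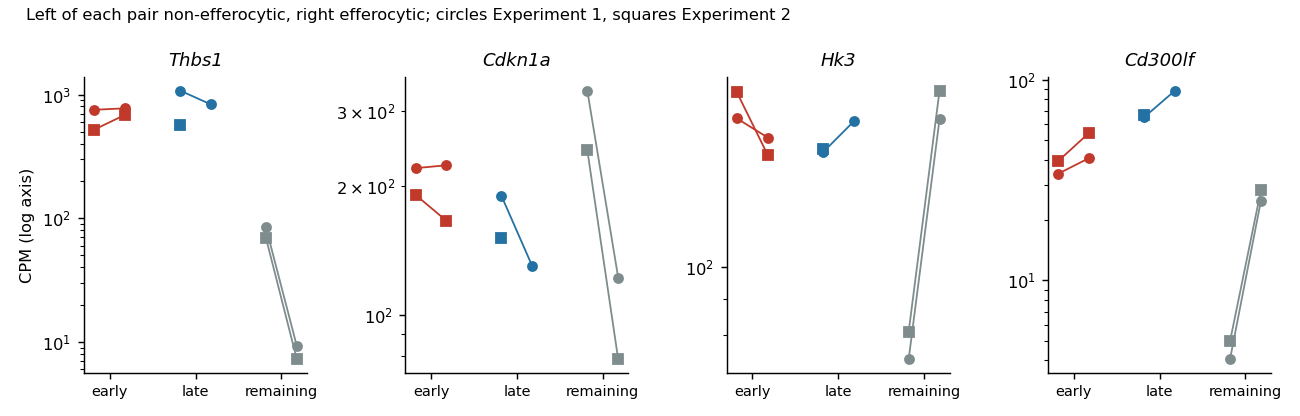
CPM (log axis) of Thbs1, Cdkn1a, Hk3 and Cd300lf in early, late and remaining cells, with non-efferocytic libraries left and efferocytic libraries right in each pair, circles for Experiment 1 and squares for Experiment 2. In remaining cells Thbs1 falls from 84.3 and 69.3 to 9.23 and 7.22 while the early cells stay between 520.2 and 774, and the late efferocytic library of Experiment 2, with 5 cells, is not plotted.

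For several granulocyte genes the remaining cells held only traces. Lcn2 lay at 0.682 and 1.52 CPM in non-efferocytic and at 0.121 and 0.156 CPM in efferocytic remaining cells, beside 57.0, 78.6, 25.8 and 35.4 CPM in free RNA (difference 2.77, SE 0.42, adjusted p = 0.00722), and with free RNA removed its difference was -0.14 (adjusted p = 1). Chil1 had 0 and 0.0065 CPM in the efferocytic remaining cells, so that its fitted difference of 4.87 depends on a few UMIs. Rab44, a GTPase gene of granulocytes and mast cells, also had only traces in remaining cells, at 0.522 and 0.391 CPM against 0.0564 and 0.052 CPM (2.74, SE 0.36, adjusted p = 0.0044). It did not pass with free RNA removed (adjusted p = 0.368). The part of free RNA in these differences was not tested beyond its removal.

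Lists for further cell types ranged from 0 to over the level in the remaining cells. The 10 monocyte markers summed to 1403 to 2090.1 CPM in early, 992 to 1376 CPM in late and 632 to 1628 CPM in the remaining cells. Most of the early sum was Ly6c2. Against the remaining cells, of 7 tested markers 3 were higher and 4 lower in early cells (Ccr2, Csf1r, Ly86 and Ms4a6c). In late cells 2 were higher and 3 lower. Of all genes 29.6% were higher and 30.4% lower in early cells, and 22.4% and 24.2% in late cells. The 6 dendritic markers were at 0 in early cells and summed to at most 1.71 CPM in late cells, and 8 lymphoid markers summed to 13.9 to 27.2 CPM in early and 0 to 30.9 CPM in late cells. The 9 eosinophil markers summed to 909 CPM in early cells of the non-efferocytic library of Experiment 2, where the cell with 1013 Prg2 UMIs lay, and to 10.2 to 38.1 CPM in the other libraries. The 9 basophil and mast cell markers summed to 51.7 to 103 CPM in early and 66.7 to 201 CPM in late cells, mostly as Hdc, the histidine decarboxylase that granulocyte precursors also make, at 92.0, 85.3, 81.4 and 49.0 CPM in early cells. The fibroblast and RM1 markers summed to 384 CPM in early cells of the non-efferocytic library of Experiment 1 and to 4.74 CPM there without macrophage RNA, and to 0 CPM in early cells of both efferocytic libraries.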

How the data were processed

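Single-cell RNA was measured in 4 libraries (10x 3′ kit). Per the methods, the authors aligned reads to mm10 with Cell Ranger 3.0.0 and analysed cells in Seurat 3.1, and the file headers name Cell Ranger 3.0.0 for Experiment 1 and 3.1.0 for Experiment 2. The deposited values are raw UMI counts per gene and barcode, not normalised, and this is the unit used throughout.

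A barcode was taken as a cell when it had 200 genes or more, 1000 UMIs or more and no more than 10% of UMIs from mitochondrial genes, and barcodes passing in both libraries of an experiment were left out. Members and gene lists were chosen with earlier results of these data known. Counts were summed per library and class, and sums of fewer than 10 cells did not enter a fit (5 where members with macrophage RNA were left out). edgeR 4.0.16 (limma 3.58.1, R 4.3.3) with TMM scaling, its filter on low counts and the quasi-likelihood test gave p-values, adjusted by the Benjamini-Hochberg method over all genes tested, with a threshold of 0.05. Class comparisons had the library as a block, and sorting status had the experiment as a block. Fits of sorting status within early cells with 1 library left out had no block. The labels give each experiment 1 library of each group, and early sums of the same experiment deviated together from the group means (correlation 0.325 over 2609 genes). DESeq2 1.42.0, other thresholds, scalings and filters, and leaving out each library were alternatives, and the split by macrophage RNA was added after seeing the data.

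Genes named are members of the lists, and per class comparison the 8 called genes with the largest change in each direction, at 50 CPM or more on average in the higher class and the same direction in every library. Within early cells the 6 largest at 20 CPM or more with the same direction in both experiments were named. Other genes, such as Thbs1, Cdkn1a, Hk3, Cd300lf, Egln3, Rab44, Ptgs1 and Prg2, were chosen after their values were seen. Some genes of the lists are not reported here.

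Doublets were scored per library with Scrublet in scanpy 1.11.5. Its automatic threshold marked 0% of cells and so did not work, the 5% with the highest scores were marked instead, and no cell was removed in the main results. The scripts were tested on simulated data. Python 3.11.15 with numpy 2.4.6, scipy 1.17.1, scikit-learn 1.9.0 and matplotlib 3.10.9 was used.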

Additional observations from a re-analysis of the deposited data

Results flagged for a closer look

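The efferocytic effect differed between early and remaining cells for 35 genes and between late and remaining cells for 5 genes, by the test of the difference itself. The late test rests on an efferocytic arm of 1 library, that of Experiment 1. Of genes that differed for both classes, Thbs1 had a difference of 3.44, Rab44 of 2.74, Ptgs1 of 1.93 and Chil1 of 4.87 on the log2 scale for early minus remaining cells. Ptgs1, the gene of cyclooxygenase 1, lay at 10.3 and 7.08 CPM in non-efferocytic and at 2.13 and 1.47 CPM in efferocytic remaining cells, and at 101, 69.9, 71.3 and 62.6 CPM in early cells. Below the cell filter, which the comparisons did not use, 21 barcodes held at least 5% of their UMIs in S100a8 and S100a9, above the share in free RNA, of 101339 barcodes with at least 200 UMIs. They numbered 3, 8, 5 and 5 in the 4 libraries, in the order used above, and 5 of the 21 had over 10% mitochondrial UMIs.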

How the results depend on the processing

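Early against late, 750 genes in the main analysis, gave 473 at a threshold of 20 UMIs and 321 to 690 with 1 library left out. With library totals in place of TMM factors it gave 967. Late against remaining cells (3578) gave 2371 to 3511 with 1 library left out. Efferocytic against non-efferocytic early cells (85) gave 24 with no replicate block, 8 with DESeq2, 148 with no filter, 33 at a threshold of 5, 34 with free RNA removed, 0 without macrophage RNA and 21 to 159 with 1 library left out, and the threshold of 20 was not run. The same contrast in remaining cells (5250) gave 2496 with no replicate block. The early difference (35) gave 6 with no replicate block, 19 and 22 at thresholds of 5 and 20, 4 with free RNA removed and 12 to 52 with 1 library left out. The late difference (5) gave 0 with no replicate block (636 at an unadjusted p under 0.05), 9 and 1 at those thresholds, 0 with free RNA removed (570 at an unadjusted p under 0.05), 23 without macrophage RNA, where the minimum of 5 cells also let the late efferocytic library of Experiment 2 enter, and 1 to 11 with 1 library left out. The ratio of early shares (0.360) was 0.395 at a threshold of 20, 0.394 with at most 5% mitochondrial UMIs, 0.318 in cells of at least 5000 UMIs, 0.621 without macrophage RNA, 0.381 with shared barcodes kept, 0.388 after thinning and 0.340 to 0.384 with 1 library left out. For late shares the ratio (0.291) was 0.245 in cells of at least 5000 UMIs and 0.359 without macrophage RNA. It depended more on the experiment, at 0.432 in Experiment 1 and 0.131 in Experiment 2. Signs turned for G0s2 without efferocytic replicate 2 (-0.15; range with 1 library left out -0.15 to 1.89), Ctsl without macrophage RNA (-0.31) and without efferocytic replicate 2 (-0.18; range -0.18 to 1.51), and for the differences of Lcn2 with free RNA removed (-0.14) and Hgsnat without macrophage RNA (0.021). Fits of the efferocytic comparison in early cells with 1 library left out also had no replicate block. Within Experiment 1, G0s2 and Ctsl were higher in efferocytic early cells. The cause of the turned signs was not tested. The named genes of each class against the remaining cells kept direction and call under every alternative in which they were tested. For late cells, 15 of the 16 were tested without macrophage RNA and 15 without the non-efferocytic library of Experiment 2. The main sums rest on 10 to 61 member cells per class and library.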
